A study of Mus musculus with 16 samples.

Results

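Interferon-stimulated genes are the genes that cells switch on when interferons bind their receptors. Here they are 43 genes of the type I and type II interferon responses, without MHC class I, looked up in a count table of 25239 genes. The list of symbols was drawn up with earlier results of these data known. All 43 were among the 14124 genes with enough counts to be tested. The cells were hematopoietic stem cells (HSCs) of mouse bone marrow, from mice aged 4 to 6 months, and each of 16 libraries measured bulk mRNA by RNA-seq. The question behind the study was what P-selectin, an adhesion molecule for leukocytes and product of the gene Selp, does in HSCs when its ligand PSGL-1 binds.

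Freshly sorted HSCs with an intact gene (SelpWT, here WT) gave 3 libraries, and those with a Selp knockout (SelpKO, here KO) gave 2. Vehicle-treated cultures gave 3 WT and 3 KO libraries. Cultures given PSGL-1 at 125 ng/mL for 24 hours gave 2 WT and 3 KO libraries. The culture medium held fetal calf serum, SCF, IL-11 and Flt-3 ligand, and no interferon is named among its additions. The sources used here do not state how long vehicle cultures lasted, in which tissues the Selp knockout allele acts or whether libraries came from separate mice. The p-values therefore reflect the spread among these libraries alone, and that spread may be technical.

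Type I interferons signal through the receptor pair Ifnar1 and Ifnar2 and the kinases Jak1 and Tyk2 to a complex that holds Stat2 and Irf9 and binds the interferon-stimulated response element (ISRE). Type II interferon signals through Ifngr1 and Ifngr2 to genes with a gamma-activated site (GAS). In HSCs, interferons are known to bring resting cells into cycle, and stem cells are known for a basal expression of part of this gene set.

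Library totals lay between 12590539 and 24690824 counts. The HSC and progenitor markers (11 genes, Kit, Procr and Slamf1 among them) summed to 2030 to 3016 CPM (counts scaled to a common library total, with edgeR's TMM factors) over the 16 libraries. Selp itself, the check of the genotype, lay between 16.3 and 188 CPM in the 8 WT libraries and between 0 and 12.5 CPM in the 8 KO libraries. One library, WT PSGL-1 replicate 1, differed from all others. It had counts for 9035 genes against 11101 to 13480 in the others. Of the 43 interferon-stimulated genes 15 had 0 counts in it, as did 5165 of all 14124 tested genes. Most results that use it are given with and without it, while DESeq2 and limma voom were run with it only.

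The summed level of the 43 genes was about 2 times higher in fresh HSCs than in cultured ones. It was 2817 ± 503 CPM in fresh WT (SD, n = 3) and 2721 ± 179 CPM in fresh KO (n = 2). In vehicle cultures it was 1283 ± 45.8 CPM in WT (n = 3) and 1342 ± 205 CPM in KO (n = 3). With PSGL-1 it was 1284 ± 13.01 CPM in WT (n = 2) and 1345 ± 124 CPM in KO (n = 3). The 5 fresh libraries ran from 2439 to 3388 CPM and the 11 cultured ones from 1133 to 1542 CPM, with no overlap between fresh and cultured, and within each condition the genotypes overlapped. The number of these genes at 0 counts was 0 to 3 in a fresh library, 2 to 12 in a vehicle library and 4 to 15 in a PSGL-1 library. Over all 14124 tested genes, the number at 0 was 1101 to 2187 fresh, 1357 to 3162 with vehicle and 1274 to 5165 with PSGL-1. For 36 of the 43 genes the highest of all 16 values was in a fresh library, a count that was not made over all genes. Of the 43, 16 were highest in WT fresh replicate 3 and 11 in KO fresh replicate 1, which was not counted over all genes either. Counts were present in every library for 24 genes, and no gene was at 0 in all of them. In bulk RNA a lower level can mean fewer cells that express a gene or less RNA of it per cell, and the 2 cannot be told apart here.

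**Figure D1:**
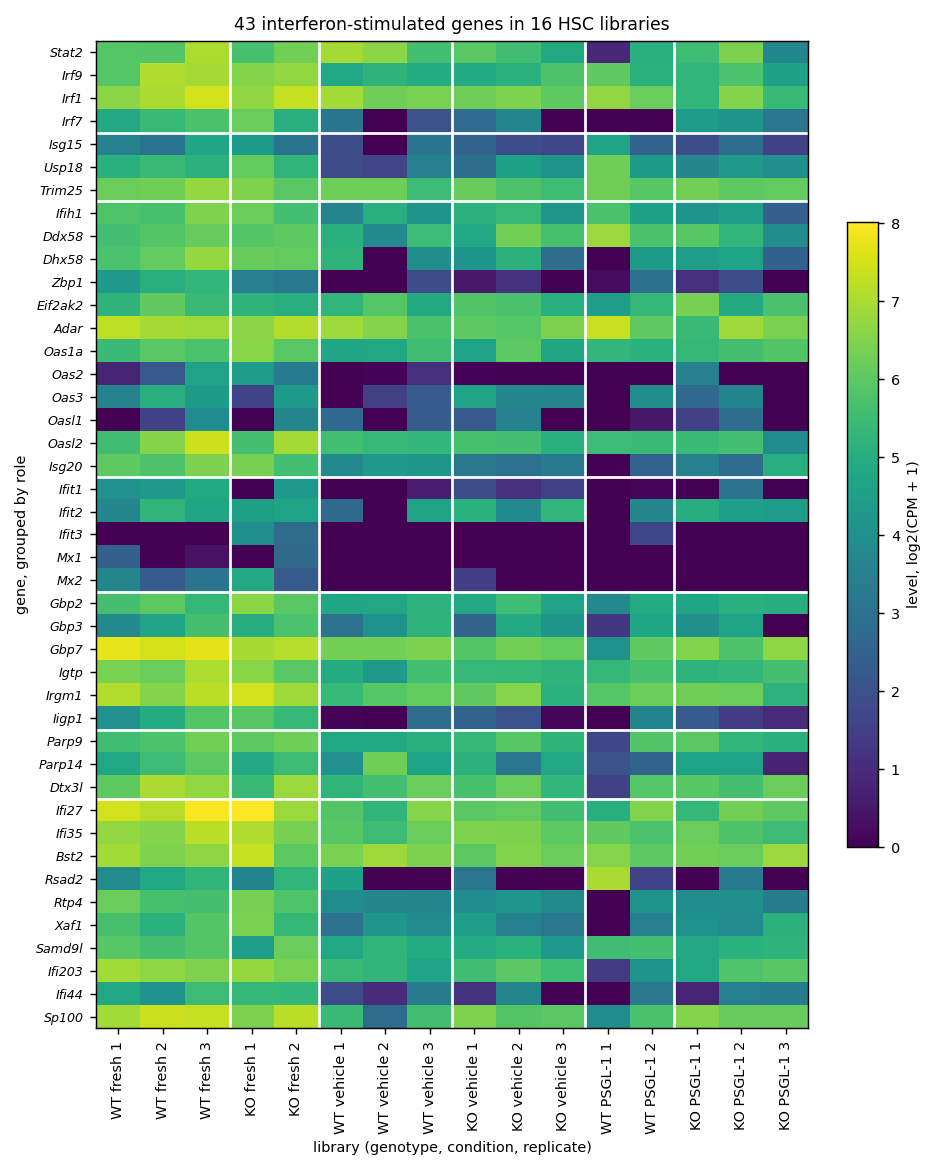
Level of each of the 43 interferon-stimulated genes (vertical axis, grouped by role between white lines) in each of the 16 libraries (horizontal axis), as log2(CPM + 1) on a color scale that starts at 0. The 5 fresh libraries on the left are brighter for most genes, and WT PSGL-1 replicate 1 shows 15 genes at 0. Of all 14124 tested genes, 5165 are at 0 in that library.

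The first comparison asked what vehicle culture did to these genes, with the change averaged over WT and KO. Of the 43 genes, 6 fell past the threshold (edgeR's quasi-likelihood test, adjusted p under 0.05 over all 14124 genes) and 0 rose. Over all genes tested, 2.30% were called lower and 4.18% higher, 6.48% in either direction. The 6 were Irf9, Usp18, Igtp, Irgm1, Gbp7 and Ifi27. The log2 change lay below 0 for 42 of the 43 genes, with a median of -1.30, against 53.1% of all genes and a median of -0.07. Because the 43 were listed with earlier results of these data known, their contrast with all genes is a description only. At an unadjusted p under 0.05, edgeR gave 27 of the 43 and 20% of all genes. All 5 fresh libraries lay above all 6 vehicle libraries for 16 genes, an arrangement found in 4.91% of all genes, and above all 11 cultured libraries for 12 genes (2.97% of all genes; 15 genes and 3.62% without WT PSGL-1 replicate 1). The 12 were Irf7, Dhx58, Zbp1, Isg20, Mx2, Gbp7, Igtp, Iigp1, Ifi27, Rtp4, Ifi203 and Ifi44. Without WT PSGL-1 replicate 1, which is in neither condition but shares in the estimate of the spread, 15 of the 43 were called lower, as were 4.23% of all genes tested. Without KO fresh replicate 1 only 1 was, which was Irf9, beside 1.08% of all genes tested.

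**Figure D2:**
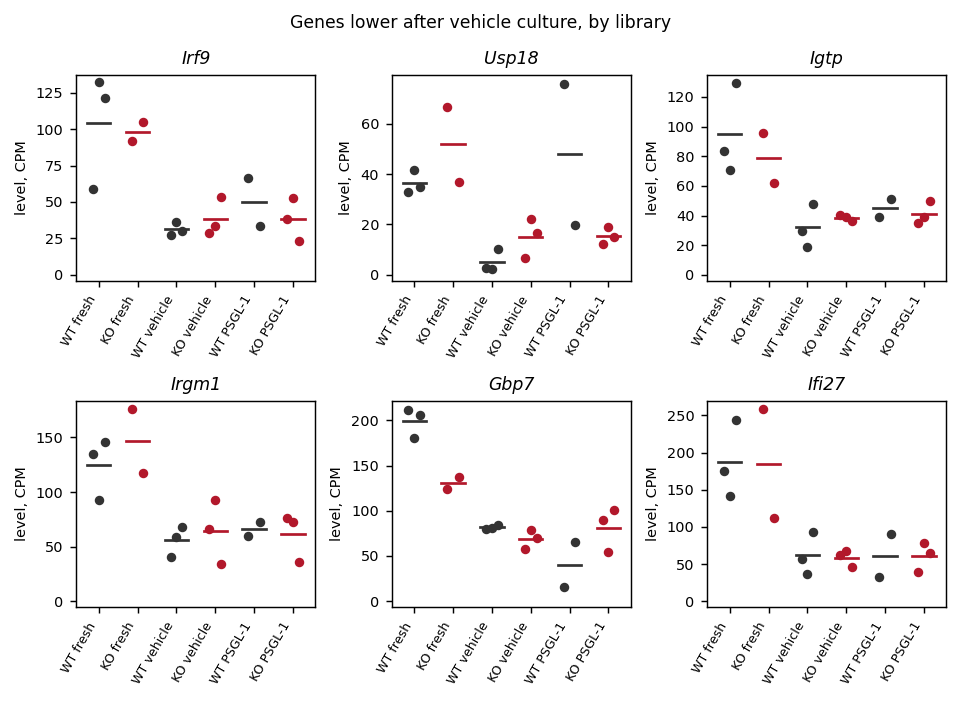
Level in CPM (vertical axis, from 0) of the 6 genes that fell with vehicle culture, by group (horizontal axis). Points are libraries, short lines are group means, WT is dark and KO is red; fresh libraries lie above vehicle libraries for all but Irgm1, where 1 KO vehicle library reaches the lowest fresh one.

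Among the pathway's transcription factors, Irf9 fell and the other 3 did not pass. Irf9 is the DNA-binding subunit of the complex with Stat2. It lies at chr14:55603985-55610030 (GRCm38.p6, the assembly also named mm10, as for all coordinates here). Its level was 59.0, 132 and 122 CPM in the fresh WT libraries and 91.8 and 105 CPM in the fresh KO ones. In vehicle cultures it was 27.2, 36.3 and 30.2 CPM in WT and 28.8, 33.4 and 53.7 CPM in KO, so that every vehicle library lay below every fresh one. The log2 change was -1.54 (SE 0.32, edgeR adjusted p = 0.00906), and Irf9 was called in all 21 fits that were run, the 12 with 1 library left out included. With PSGL-1 it stood at 66.4 and 33.8 CPM in WT and at 38.6, 52.7 and 23.1 CPM in KO, and WT PSGL-1 replicate 1 gave the one cultured value above the lowest fresh library.

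Irf7, the factor that amplifies type I interferon production, was at 27.5, 41.3 and 51.4 CPM in fresh WT and 71.3 and 32.0 CPM in fresh KO. In vehicle cultures it was at 7.61, 0 and 2.995 CPM in WT and at 5.91, 11.9 and 0 CPM in KO. The groups did not overlap, and the log2 change of -3.31 (SE 1.23) did not pass (edgeR adjusted p = 0.144). Irf1, which responds to both interferon types, was at 98.7 to 174 CPM in fresh libraries and 64.3 to 118 CPM in vehicle ones, with a log2 change of -0.65 (SE 0.27, edgeR adjusted p = 0.191). Stat2, the partner of Irf9, overlapped widely, at 50.1 to 130 CPM fresh and 28.0 to 123 CPM with vehicle (log2 change -0.19, SE 0.65, edgeR adjusted p = 0.970).

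Usp18 (chr6:121245906-121270917) fell, and it is the protease that removes the ubiquitin-like protein Isg15 from its targets and also dampens signalling at Ifnar2. Fresh libraries held 32.9, 41.5 and 34.8 CPM in WT and 66.8 and 36.9 CPM in KO. Vehicle libraries held 2.66, 2.23 and 10.4 CPM in WT and 6.50, 22.3 and 16.7 CPM in KO. The log2 change was -2.30 (SE 0.58, edgeR adjusted p = 0.0266), and the highest vehicle value lay below the lowest fresh one. It was called in 15 of the 21 fits. Isg15 itself was low, at 7.61 to 26.1 CPM fresh and 0 to 7.68 CPM with vehicle, and did not pass (log2 change -2.07, SE 1.11, edgeR adjusted p = 0.328). Trim25, the ubiquitin ligase that activates the RNA sensor Ddx58 and is a target of Isg15, ran from 61.6 to 106 CPM fresh and from 44.3 to 75.8 CPM with vehicle (log2 change -0.40, edgeR adjusted p = 0.416).

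Of the 6 genes that fell, 3 are GTPases of the interferon response, a group with 6 genes in the set. Igtp and Irgm1 are immunity-related GTPases that act on vacuoles of intracellular pathogens and on autophagy, and Gbp7 is a guanylate-binding protein. Irgm1 is also known in mice for its part in HSC proliferation. Igtp was at 83.8, 71.0 and 130 CPM in fresh WT and 95.9 and 62.0 CPM in fresh KO. In vehicle cultures it was at 29.5, 18.7 and 47.6 CPM in WT and 40.1, 39.3 and 36.3 CPM in KO, all below the fresh values (log2 change -1.30, SE 0.30, edgeR adjusted p = 0.0170). Its 5 PSGL-1 libraries, at 35.0 to 50.8 CPM, also lay below every fresh one.

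Irgm1 was at 135, 92.3 and 146 CPM in fresh WT and 176 and 117 CPM in fresh KO. With vehicle it was at 40.6, 58.6 and 67.5 CPM in WT and 66.1, 92.9 and 34.1 CPM in KO. KO vehicle replicate 2 just exceeded WT fresh replicate 2, and the other 5 vehicle libraries lay below all fresh ones (log2 change -1.18, SE 0.30, edgeR adjusted p = 0.0263). Gbp7 was at 212, 180 and 206 CPM in fresh WT and 124 and 138 CPM in fresh KO. With vehicle it was at 79.5, 80.5 and 84.7 CPM in WT and 57.7, 78.8 and 69.4 CPM in KO, below every fresh value (log2 change -1.11, SE 0.29, edgeR adjusted p = 0.0301). Irgm1 was called in 14 and Gbp7 in 10 of the 21 fits, and Gbp7 in 1 of the 12 that left out a library. The other 3 GTPases, Gbp2, Gbp3 and Iigp1, had log2 changes from -4.14 to -0.94 and did not pass.

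Promoter sequences are shown for the 4 called genes that RefSeq's promoter table (GRCm38.p6) holds. Each is the 250 bases upstream of the gene start, with ISRE cores (GAAA and GAAA with any 2 bases between them, on either strand) and GAS cores (TTC and GAA with any 3 bases between them) in capitals. They are Irgm1 at chr11:48871421-48871670 on the minus strand, Igtp at chr11:58199306-58199555, Gbp7 at chr3:142530086-142530335 and Irf9 at chr14:55603735-55603984, the last 3 on the plus strand.
Irgm1: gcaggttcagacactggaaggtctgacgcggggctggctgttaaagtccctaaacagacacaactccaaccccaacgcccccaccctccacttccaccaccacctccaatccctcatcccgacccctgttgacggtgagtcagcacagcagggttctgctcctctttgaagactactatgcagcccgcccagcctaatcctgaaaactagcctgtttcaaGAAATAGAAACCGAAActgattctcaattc
Igtp: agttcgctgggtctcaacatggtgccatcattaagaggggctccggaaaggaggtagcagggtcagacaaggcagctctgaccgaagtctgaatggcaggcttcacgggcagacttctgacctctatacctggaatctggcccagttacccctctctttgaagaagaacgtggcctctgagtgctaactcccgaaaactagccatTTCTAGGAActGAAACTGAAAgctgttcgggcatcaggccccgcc
Gbp7: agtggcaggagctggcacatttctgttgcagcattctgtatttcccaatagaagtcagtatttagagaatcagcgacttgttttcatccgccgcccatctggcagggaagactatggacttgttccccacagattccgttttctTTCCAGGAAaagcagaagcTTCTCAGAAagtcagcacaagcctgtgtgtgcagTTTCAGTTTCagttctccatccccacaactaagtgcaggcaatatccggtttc
Irf9: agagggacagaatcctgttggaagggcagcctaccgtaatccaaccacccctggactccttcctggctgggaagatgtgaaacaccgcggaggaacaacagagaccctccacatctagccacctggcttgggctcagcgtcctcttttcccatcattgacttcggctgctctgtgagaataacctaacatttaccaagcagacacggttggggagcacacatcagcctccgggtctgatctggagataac
Irgm1 holds 2 overlapping ISRE cores, Igtp 1 ISRE core beside 1 GAS core, and Gbp7 1 ISRE core and 2 GAS cores, while no such letters lie in this window of Irf9. Of the 43 genes, 32 matched the table, with windows of 300 bases that add 50 bases after the start. A gene symbol was counted once if any of its windows held a core. An ISRE core lay in 17 of these 32 (53.1%) and in 3.99% of all 27025 gene symbols of the table. A GAS core lay in 10 (31.2%) and in 9.55% of all symbols. The 43 genes were chosen as interferon response genes, so higher shares than over all symbols come with that choice. They do not bear on the change with culture. A match is a run of letters, not a measured binding site.

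Ifi27 (chr12:103434189-103440245), a small protein of mitochondrial and nuclear membranes, had the smallest adjusted p of the 43. It was at 176, 141 and 244 CPM in fresh WT and 258 and 111 CPM in fresh KO. With vehicle it was at 57.3, 37.1 and 92.5 CPM in WT and 62.0, 67.1 and 46.2 CPM in KO, and all 11 cultured libraries lay below all 5 fresh ones (log2 change -1.63, SE 0.34, edgeR adjusted p = 0.00796). It was called in 20 of the 21 fits. The other 9 effectors of mixed function all had log2 changes below 0 and did not pass. Sp100, a nuclear body protein, came nearest, at 84.8 to 163 CPM fresh and 6.17 to 87.6 CPM with vehicle (log2 change -1.47, SE 0.43, edgeR adjusted p = 0.0565). Ifi35 was at 81.5 to 144 CPM fresh and 45.4 to 87.0 CPM with vehicle (log2 change -0.69, SE 0.24, edgeR adjusted p = 0.111). Bst2, which tethers budding virions to the cell surface, overlapped, at 62.8 to 159 and 63.5 to 115 CPM (log2 change -0.34, SE 0.25, edgeR adjusted p = 0.538).

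None of the 12 sensors and enzymes of foreign RNA passed, although 11 lay below 0 and the median was -1.23. Isg20, an RNA exonuclease, was at 48.2 to 86.3 CPM in fresh libraries and at 7.14 to 19.0 CPM in vehicle ones, without overlap (log2 change -2.52, SE 0.79, edgeR adjusted p = 0.0743). Zbp1, a sensor of Z-form nucleic acids, was at 8.46 to 38.1 CPM fresh and had 0 counts in 3 of 6 vehicle libraries, with at most 2.69 CPM in the rest. Dhx58 and Ifih1, helicases that bind double-stranded RNA, ran from 52.5 to 107 CPM and from 48.0 to 87.9 CPM in fresh libraries, above all vehicle values of 0 to 35.9 CPM and 11.7 to 40.3 CPM. Adar, which edits double-stranded RNA, was at 97.3 to 151 CPM fresh and 52.0 to 113 CPM with vehicle (log2 change -0.67, SE 0.31, edgeR adjusted p = 0.236). Eif2ak2, the kinase that halts translation upon binding double-stranded RNA, was the one gene above 0, at 32.0 to 65.9 CPM fresh and 28.2 to 58.6 CPM with vehicle (log2 change 0.12, SE 0.37, edgeR adjusted p = 0.957).

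None of the 5 IFIT and Mx genes, which encode antiviral proteins, passed. Mx1 had 0 counts in all 11 cultured libraries, and in fresh ones it was at 0 to 5.77 CPM. It passed the low-count filter through fresh libraries alone, so its place among the genes below 0 was fixed in advance. Mx2 was at 3.74 to 27.3 CPM fresh and at 0 in 5 of 6 vehicle libraries. In WT, Mx2 was at least 38.2-fold lower with vehicle, taking 3 counts per library as the floor of a group at 0. Oas2, an oligoadenylate synthetase of the RNA sensor group, was at 0.776 to 23.8 CPM fresh and 0 to 1.15 CPM with vehicle (edgeR adjusted p = 0.0821). Ifit1 was at 15.7 to 28.4 CPM in fresh WT and at most 0.538 CPM in WT vehicle, while fresh KO had 0 and 18.6 CPM. Ifit2 overlapped at 12.1 to 37.2 CPM fresh and 0 to 37.5 CPM with vehicle. The 3 genes of the ADP-ribosylation group, Parp9, Parp14 and Dtx3l, had log2 changes from -0.81 to -0.43, and none passed.

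**Figure D3:**
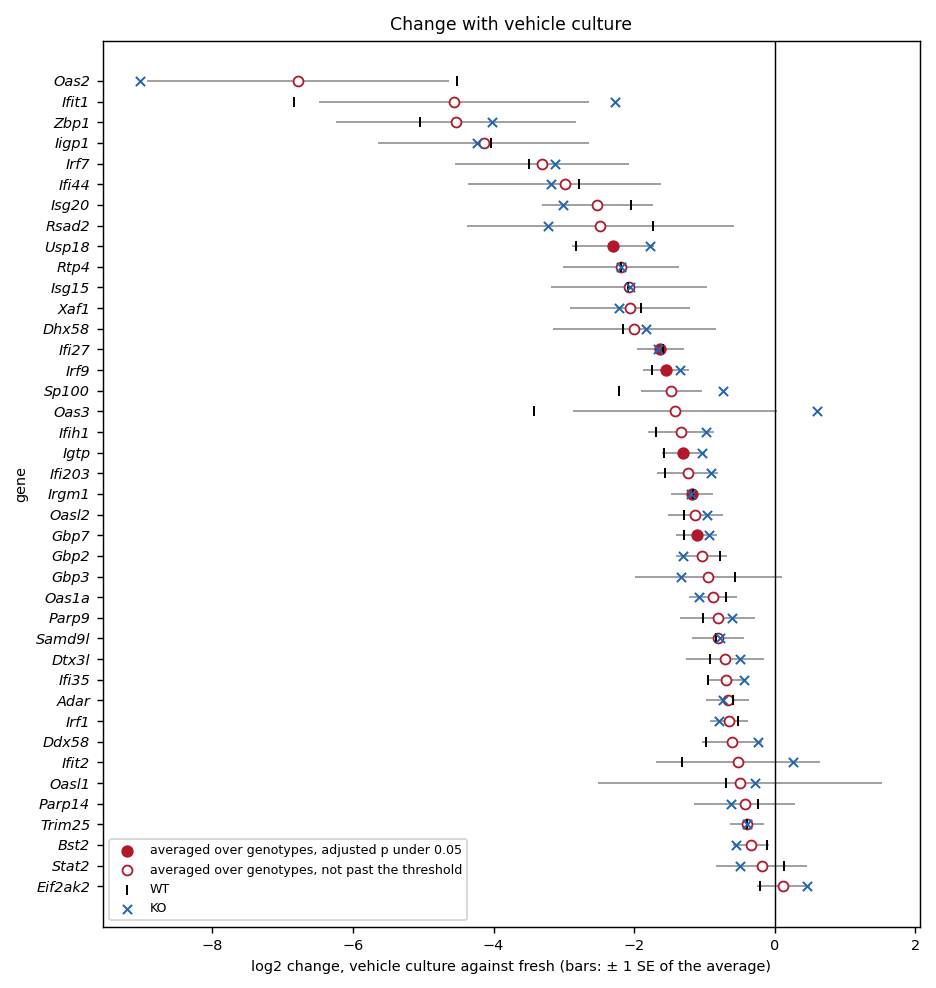
Log2 change of 40 of the 43 genes between vehicle and fresh HSCs (horizontal axis), ordered by size (vertical axis); circles are averages over genotypes with bars of 1 SE, filled where the adjusted p was under 0.05, and ticks and crosses are WT and KO. Ifit3, Mx1 and Mx2 are left out because a group had 0 counts; 6 circles are filled, and their bars are shorter than those of many genes with larger changes.

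Each genotype alone gave the same direction for most genes but no call. In WT, 41 of 43 genes lay below 0 with a median of -1.57, and 0 passed (1.64% of all genes were called, 0.404% lower). In KO, 40 of 43 lay below 0 with a median of -1.07, and 0 passed (1.77% of all genes, 0.538% lower). At an unadjusted p under 0.05, edgeR gave 13 of the 43 in WT and 9 in KO, beside 12% and 11.7% of all genes. Adjusted over all genes, DESeq2 called 8 of the 43 lower in WT and 2 in KO, beside 2.63% and 2.20% of all genes. With limma voom 7 of the 43 were called lower in each genotype, beside 2.08% of all genes in WT and 2.56% in KO. Without WT PSGL-1 replicate 1, edgeR called 8 lower in WT and 3 in KO, beside 1.04% and 1.27% of all genes tested. Fresh libraries lay above all vehicle libraries of the same genotype for 26 genes in WT and 26 in KO, as did 12.7% and 19.0% of all genes. The difference of the change between KO and WT was tested directly. No gene passed in edgeR (0% of all genes; 0 of the 43 and 353 of all genes, 2.50%, at an unadjusted p under 0.05). DESeq2 called 69 genes (0.489%) with none of the 43 among them, and the median difference was 0.06 over the 43 and 0.04 over all genes.

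Markers of other cell types were summed in the same libraries, and no sum was tested. T and NK markers summed to 38.6 to 99.9 CPM fresh and 10.4 to 21.8 CPM with vehicle, the one list whose ranges did not overlap, with Cd3e, Cd3d, Cd3g, Cd8a and Ncr1 at 0 in all libraries. Granulocyte markers summed to 275 to 644 CPM and 37.7 to 306 CPM, with Ly6g at 0 in all. Macrophage, monocyte and dendritic markers summed to 138 to 202 CPM and 65.6 to 173 CPM, with Itgax at 0 in all. Plasmacytoid dendritic markers, from cells known for high interferon output, were at 74.3 to 184 CPM fresh and 118 to 234 CPM with vehicle, with Klk1 at 0. Erythroid markers were at 68.1 to 202 CPM fresh and 104 to 196 CPM with vehicle, and B and plasma cell markers at 42.5 to 93.0 and 39.4 to 92.0 CPM. Endothelial and stromal markers were at 30.3 to 95.6 and 45.9 to 85.2 CPM, and megakaryocyte and platelet markers at 1812 to 2573 and 1385 to 1936 CPM. HSC and progenitor markers overlapped too, at 2470 to 2946 CPM fresh and 2108 to 3016 CPM with vehicle. In any such sum the rise of a single gene can offset falls of others. An overlap of sums therefore does not show that each marker kept its level. The part of other cell types in the lower levels of the interferon-stimulated genes was not tested.

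Upstream of the set, no listed interferon was counted. Of 24 listed ligands, receptors and signalling genes, 7 (Ifna1, Ifna2, Ifna4, Ifnb1, Ifng, Ifnl2 and Ifnl3) had 0 counts in all 16 libraries, where 3 counts correspond to 0.123 to 0.230 CPM. Of the 16 that were tested, 0 fell and 2 rose with vehicle culture, against the same 2.30% and 4.18% of all genes. Socs3, an inhibitor of Jak kinases induced by cytokines, rose from 29.7 ± 14.4 CPM (SD, n = 5) to 185 ± 39.4 CPM (n = 6), a log2 change of 2.60 (SE 0.31, edgeR adjusted p = 0.000113). Ptpn11, a phosphatase of cytokine receptors, rose from 78.1 ± 23.3 to 117 ± 21.5 CPM (log2 change 0.67, SE 0.19, edgeR adjusted p = 0.0429).

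The receptors and kinases did not pass. Ifnar1 was at 56.3 ± 24.7 CPM fresh and 38.9 ± 13.1 CPM with vehicle, and Ifnar2 at 110 ± 18.9 and 114 ± 31.8 CPM. Ifngr1 was at 105 ± 15.1 and 71.2 ± 14.8 CPM, and Ifngr2 at 29.3 ± 15.3 and 22.9 ± 7.81 CPM. Jak1 was at 419 ± 73.4 and 311 ± 67.7 CPM, and Tyk2 at 110 ± 38.8 and 68.9 ± 23.0 CPM. The adjusted p of edgeR was 0.179 for Jak1 and 0.450 for Tyk2.

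Of 49 other interferon-stimulated genes listed beside the set, 46 were tested, 4 fell and 2 rose with vehicle culture, against 2.30% and 4.18% of all genes. Uba7, the enzyme that activates Isg15 for conjugation, fell from 565 ± 93.5 CPM (n = 5) to 162 ± 42.7 CPM (n = 6), without overlap (log2 change -1.82, SE 0.20, edgeR adjusted p = 5.18e-05). Tgtp1, another immunity-related GTPase, fell from 70.2 ± 14.2 to 14.5 ± 6.34 CPM. Gbp4 fell from 24.8 ± 15.2 CPM to at most 0.715 CPM, and Gbp9 from 26.2 ± 30.8 CPM to 0 counts in every vehicle library. Ly6a, which encodes the stem cell antigen Sca-1, rose from 138 ± 61.3 to 635 ± 175 CPM (log2 change 2.14, SE 0.18, edgeR adjusted p = 5.51e-06), and Ly6e rose from 877 ± 144 to 1442 ± 246 CPM (log2 change 0.70, SE 0.16, edgeR adjusted p = 0.0130). Of 9 other interferon regulatory factor genes, Irf2bpl rose and none fell, and of 13 tested genes of nucleic acid sensing none passed.

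The second question was whether loss of Selp changed the set. No interferon-stimulated gene passed in fresh HSCs, vehicle cultures or PSGL-1 cultures, where 0.00708% of all genes, 1 gene each, were called. The median log2 difference between KO and WT over the 43 genes was -0.07 fresh, 0.14 with vehicle and 0.03 with PSGL-1, against 0.00, 0.00 and 0.17 over all genes. At an unadjusted p under 0.05, edgeR gave 1, 1 and 5 of the 43, beside 2.84%, 2.83% and 5.81% of all genes. In fresh HSCs, KO libraries lay below all WT ones for 3 genes and above them for 1, as did 9.20% and 9.78% of all genes. Both counts are smaller shares of the 43 than of all genes. The SE of the log2 difference in fresh cells had a median of 0.84 over the 43 genes.

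Gbp7 and Zbp1 were among the 3 genes lower in fresh KO, at 199 ± 16.9 and 131 ± 9.63 CPM for Gbp7 and at 29.6 ± 9.78 and 9.40 ± 1.32 CPM for Zbp1 in WT and KO. The edgeR adjusted p was 1 for both. Ifit3 was the 1 gene higher, with 0 counts in all 3 fresh WT libraries and 15.2 and 6.21 CPM in the 2 fresh KO libraries, at least 50.1-fold higher (edgeR adjusted p = 1, limma voom adjusted p = 0.0109, where voom called 0.0496% of all genes higher). Ifit3 has close copies beside it in the genome, and how reads matching several copies were counted is not stated in the sources used here, so its absence in WT is uncertain. In vehicle cultures, KO libraries lay below all WT ones for 2 genes and above them for 5, as did 4.20% and 5.14% of all genes. Among the 5 were Sp100, at 31.5 ± 22.2 CPM in WT and 69.0 ± 16.2 CPM in KO, and Oas3, at 1.92 ± 1.96 and 15.7 ± 6.74 CPM.

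In PSGL-1 cultures, KO libraries lay below all WT ones for 3 genes and above them for 7, as did 6.92% and 10.8% of all genes. Without WT PSGL-1 replicate 1, which leaves 1 WT library, these counts were 11 and 9, beside 23% and 18.1% of all genes. Irf7 had 0 counts in both WT PSGL-1 libraries and 20.3, 16.8 and 7.95 CPM in the KO ones, at least 90.9-fold higher. It did not pass in edgeR (adjusted p = 0.765) and did in DESeq2 (adjusted p = 0.000344), which also called Oas2 and Ifi203 higher there, beside 1.49% of all genes. The DESeq2 log2 difference of Oas2 was 22.3, a size that its low counts cannot measure. Rsad2, the antiviral enzyme viperin, was at 126 CPM in WT PSGL-1 replicate 1 and at 0 to 23.1 CPM in the other 10 cultured libraries. Its log2 difference between KO and WT with PSGL-1 was -4.44, and 0.49 without that library. With genotypes compared over all 3 conditions at once, 0 of the 43 passed (0.0354% of all genes were called), 28 of the 43 lay above 0, and edgeR gave 2 of the 43 and 6.84% of all genes at an unadjusted p under 0.05. The median was 0.17 over the 43 and 0.07 over all genes, of which 44.0% lay below 0, and without WT PSGL-1 replicate 1 it was 0.08 over the 43 and 0.03 over all genes. DESeq2 called 2 of the 43 higher in KO, beside 1.18% of all genes. Without WT PSGL-1 replicate 2, which leaves the library that stands apart alone in its group, edgeR called 8 of the 43 higher in KO on average and 11 with PSGL-1, beside 13.9% and 17.2% of all genes tested.

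**Figure D4:**
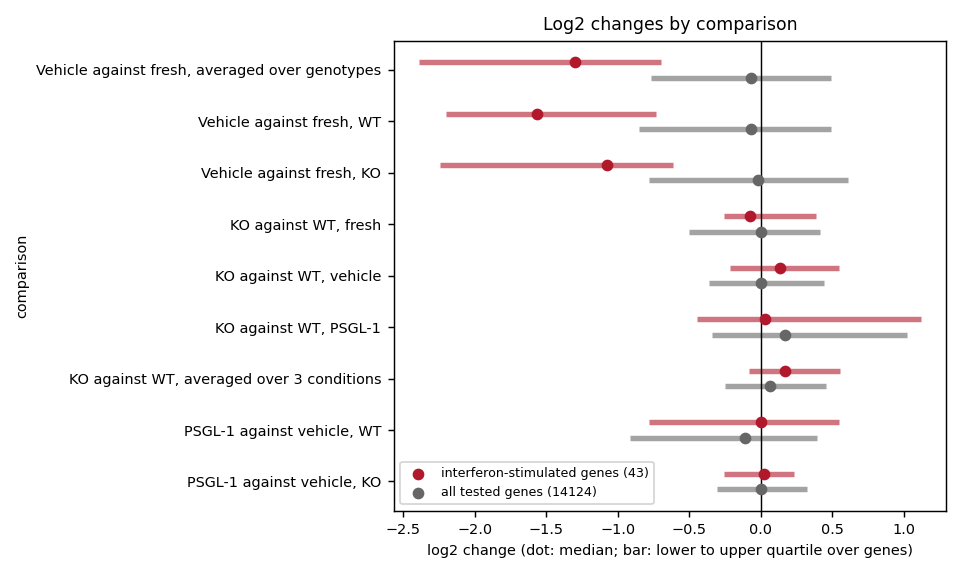
Median (dot) and lower to upper quartile (bar) of the log2 change over the 43 interferon-stimulated genes and over all 14124 tested genes (horizontal axis), for 9 comparisons (vertical axis). The dots of the 43 genes lie at -1.30, -1.57 and -1.07 for vehicle against fresh, and between -0.07 and 0.17 for the 6 comparisons of genotype or PSGL-1.

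One of the 43 genes lies near Selp. Selp is at chr1:164115264-164150026 and Ifi203, a nuclear protein of the DNA-binding Ifi200 family, at chr1:173920400-173942866, 9.77 Mb away. Ifi203 was at 118, 98.8 and 88.4 CPM in fresh WT and 107 and 84.4 CPM in fresh KO. In vehicle cultures it was at 41.4, 37.0 and 24.7 CPM in WT and 46.3, 61.5 and 45.1 CPM in KO, and with PSGL-1 at 1.58 and 16.6 CPM in WT and 26.6, 54.9 and 60.2 CPM in KO. The genotypes overlapped in fresh cells, and each KO culture lay above every WT culture of the same treatment. Averaged over conditions the log2 difference was 0.95 (SE 0.37, edgeR adjusted p = 0.662), and 0.66 without WT PSGL-1 replicate 1. With PSGL-1 alone it was 2.38 (edgeR adjusted p = 0.765), and 1.52 without that library. All 5 fresh libraries lay above all 11 cultured ones (log2 change with vehicle -1.24, SE 0.44, edgeR adjusted p = 0.118).

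The Ifi200 cluster around it gave 5 tested genes of 12 in the table, of which 1 fell with vehicle culture. Mndal, 9.71 Mb from Selp, fell from 113 ± 39.9 CPM (n = 5) to 47.1 ± 11.9 CPM (n = 6; log2 change -1.30, SE 0.26, edgeR adjusted p = 0.00720). None passed between genotypes. Ifi204, 9.60 Mb from Selp and picked out after its values were seen, had 0 counts in all 8 WT libraries and counts in all 8 KO libraries. It stood at 11.6 and 8.19 CPM in fresh KO, at 2.47, 8.57 and 2.30 CPM in KO vehicle and at 1.82, 2.05 and 2.59 CPM in KO PSGL-1. Averaged over conditions Ifi204 did not pass (edgeR adjusted p = 0.178). Ifi202b, 9.81 Mb from Selp, also had 0 counts in all WT libraries. Its KO means were 5.59 CPM fresh, 1.07 CPM with vehicle and 0.726 CPM with PSGL-1. In both kinds of culture its KO and WT libraries overlapped. None of the 5 tested genes lay below 0 for KO against WT averaged over conditions, with a median log2 difference of 0.95. The Ifi200 genes are close copies of each other, whose reads may have been split or lost, and the sources used here do not name the strain that carried the knockout allele. A part of sequence differences near Selp in these counts was not tested.

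**Figure D5:**
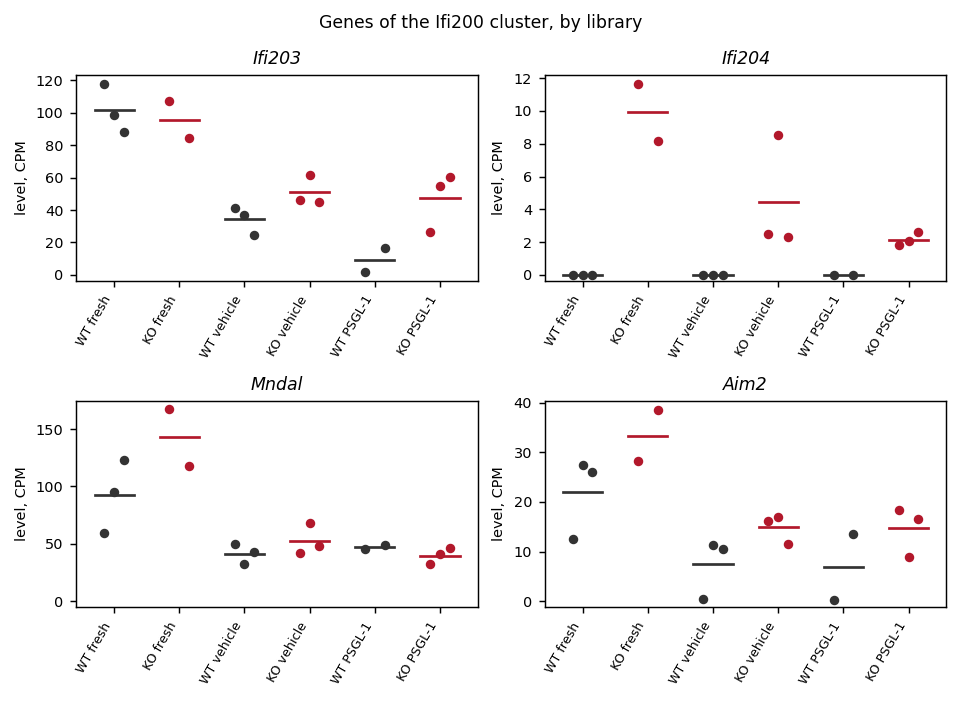
Level in CPM (vertical axes, from 0) of 4 genes of the Ifi200 cluster by group (horizontal axes), with points for libraries and short lines for group means, WT dark and KO red. Ifi204 is at 0 in all 8 WT libraries and above 0 in all 8 KO libraries, and Ifi203 and Mndal are highest in fresh cells. Ifi202b, also tested and at 0 in all WT libraries, is not shown.

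The third question was whether PSGL-1 changed the set in culture. No gene of any kind was called by edgeR in WT or KO (0% of all genes in both), while at an unadjusted p under 0.05 it gave 803 genes (5.69%) in WT, 8 of the 43 among them, and 198 genes (1.40%) in KO, 2 of the 43 among them. The median log2 change of the 43 genes between PSGL-1 and vehicle was 0.00 in WT and 0.02 in KO, against -0.11 and 0.00 over all genes, and in WT 0.05 without WT PSGL-1 replicate 1, where 0 genes were called as well. DESeq2 called 2 of the 43 lower in WT, Irf7 and Oas2, and 1 higher, Usp18, beside 1.21% and 0.411% of all genes, and 41 genes (0.290%) in KO with none of the 43. Its log2 change for Oas2 in WT was -19.2, a size that the low counts of Oas2 cannot measure. PSGL-1 libraries lay below all vehicle libraries for 5 genes and above them for 3 in WT, as did 8.07% and 5.88% of all genes, and for 1 and 0 in KO, as did 3.96% and 4.10%. Without WT PSGL-1 replicate 1, the counts in WT were 7 and 12, beside 14.4% and 21.6% of all genes.

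Among the larger differences in WT, Usp18 was at 75.8 CPM in WT PSGL-1 replicate 1 and at 19.8 CPM in replicate 2, against 2.23 to 10.4 CPM in the 3 WT vehicle libraries (log2 change 3.23, SE 0.87, edgeR adjusted p = 0.774). DESeq2 called Usp18, with a log2 change of 3.27 (adjusted p = 0.00391). Without replicate 1 the log2 change of Usp18 was 1.94 (edgeR adjusted p = 1). Ddx58, the RNA sensor RIG-I, was at 112 and 51.7 CPM against 12.9 to 43.8 CPM. Parp14, an ADP-ribosyltransferase, was at 3.16 and 4.84 CPM against 15.7 to 74.6 CPM (log2 change -3.25, edgeR adjusted p = 0.774, and -2.97 without replicate 1). Usp18, Ddx58 and Parp14 thus lay apart from vehicle in both WT PSGL-1 libraries, and in KO each of them overlapped with vehicle. They were named for their size or as examples. In WT, 5 of the 43 lay below all vehicle libraries and 3 above, beside 8.07% and 5.88% of all genes. The difference of the PSGL-1 response between KO and WT gave 0 calls in edgeR (0% of all genes; 6 of the 43 and 4.33% of all genes at an unadjusted p under 0.05). The median difference was 0.11 over the 43 and 0.15 over all genes, and -0.30 and 0.02 without WT PSGL-1 replicate 1. DESeq2 called 2 of the 43 higher for this difference, Irf7 and Oas2, beside 0.673% of all genes. For Oas2 its estimate was 26.6 on the log2 scale, again a size that low counts cannot measure.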

How the data were processed

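RNA-seq of 16 HSC libraries was analysed from raw read counts per gene symbol, as deposited by the authors. Per the submitters' processing notes, STAR 2.7.5c, featureCounts, DESeq2, MultiQC 1.10 and the build mm10 were used. Per the labels' protocols, libraries came from a low-input SMART kit. The sources used here do not state the annotation, the strand setting or how multi-matching reads were counted, so levels of near-identical copies are uncertain. No value column belonged to an unlisted sample.

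Genes were kept by edgeR's filterByExpr by group (14124 of 25239). A single edgeR 4.0.16 quasi-likelihood model (robust, TMM scaling, R 4.3.3) was fitted to all 16 libraries with 1 mean per group. Adjusted p-values are Benjamini-Hochberg over all tested genes, with a threshold of 0.05. Each of 11 contrasts was tested two-sided. Levels are CPM on scaled totals; they are not corrected for gene length, so no level is compared between genes. For a group at 0, folds are bounds from 3 counts per library, which cover counting error only. The fitting was tested on simulated counts.

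Named genes were the regulators Stat2, Irf1, Irf7 and Irf9, the genes past the threshold, the 10 with the highest mean CPM, the 3 with the largest change per comparison among those with a group mean of at least 5 CPM, and genes within 20 Mb of Selp. Others named served as examples, chosen after their values were seen. The members, the lists and these rules were chosen with earlier results of these data known. Alternatives were DESeq2 1.42.0, limma 3.58.1 (voom with library quality weights), other scaling, other filters, fits of the compared groups alone, each library left out, and replicate blocks. Counts of genes without overlap were also made without WT PSGL-1 replicate 1, an alternative chosen after seeing the data.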

Additional observations from a re-analysis of the deposited data

How the results depend on the processing

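In this paragraph, counts of all genes hold both directions and counts of the 43 are of lower calls. With vehicle against fresh averaged over genotypes, 915 genes (325 of them lower) and 6 of the 43 were called by edgeR. DESeq2 called 1780 genes (21 of the 43 lower), limma voom 1896 (23) and the fit of the compared groups alone 1455 (16). The share of all genes called lower is not given for these fits, so 21, 23 and 16 have no background beside them. Leaving out 1 library gave 552 to 1566 genes and 1 to 15 of the 43. The low extreme came without KO fresh replicate 1 and the high one without WT PSGL-1 replicate 1. In these fits 1.08% and 4.23% of all genes tested were called lower. The median over the 43 stayed between -1.42 and -1.18 when libraries were left out. For WT and KO alone, the fits of the compared groups are given as counts of the 43 only, with no share of all genes beside them. No result about the 43 can be read from those counts. In WT, DESeq2 called 797 genes (8 of the 43 lower), voom 706 (7), the compared groups alone 3 of the 43, and leaving out 1 library 85 to 440 genes and 0 to 8. In KO the same gave 831 (2), 542 (7), 2 of the 43, and 76 to 554 genes with 0 to 3. For the difference between genotypes, DESeq2 called 69 genes and leaving out 1 library 0 to 31.

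For KO against WT, DESeq2 called 93 genes fresh, 111 with vehicle, 250 with PSGL-1 (3 of the 43 higher) and 241 on average (2 higher). Voom called 7 genes fresh (1 of the 43 higher), 3 with vehicle and 0 with PSGL-1. In fresh cells no filter gave 3 genes and the compared groups alone 2, and these gave 0 with PSGL-1. Leaving out 1 library gave 1 to 83 genes fresh, 1 to 8 with vehicle, 1 to 2979 with PSGL-1 (0 to 11 of the 43 higher, median 0.00 to 1.39) and 4 to 2272 on average (0 to 8 higher). For PSGL-1 against vehicle, DESeq2 called 229 genes in WT (2 of the 43 lower, 1 higher), 41 in KO and 118 for the difference (2 higher). Leaving out 1 library gave 0 to 2955 genes in WT (0 to 10 lower, 0 to 1 higher, median -1.20 to 0.15) and 0 to 2370 for the difference (0 to 8 higher, 0 to 1 lower, median -0.30 to 1.21). Each of these high extremes with PSGL-1 libraries came without WT PSGL-1 replicate 2. On raw library totals the summed level in WT PSGL-1 was 1263 CPM.

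Directions turned for genes that had not passed. For KO against WT with vehicle, Rsad2 was at 0.38 in voom and ran from -9.97 to 8.41 without single libraries. Stat2 in WT was at -0.10 with the replicate block. Without single libraries, vehicle against fresh ran from -0.35 to 0.074 for Stat2 on average and from -0.17 to 0.63 in WT. Bst2 ran from -0.58 to 0.056 on average, -0.27 to 0.0095 in WT and -1.04 to 0.24 in KO, and Dtx3l in KO from -1.05 to 0.39. KO against WT ran from -0.26 to 0.051 for Ifi203 fresh, from -13.03 to 0.49 for Rsad2 with PSGL-1 and from -0.91 to 4.03 for Ifit1 on average. PSGL-1 against vehicle ran from -1.88 to 13.02 for Rsad2 in WT and from -0.32 to 0.17 for Ifi203 in KO, and its difference between genotypes from -4.45 to 6.47 for Oas3. The cause of these changes was not tested.

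No pairing of libraries by replicate number was seen: over 36 same-numbered pairs the deviations from group means correlated at -0.06 to 0.08. These correlations cannot exclude pairing, because the spread within groups was wide (edgeR's common coefficient of variation 0.977). With the replicate block, 788 genes and 5 of the 43 were called for vehicle against fresh averaged over genotypes, and with blocks by runs of library numbers 819 and 7. Fits of the compared groups alone were not run for the genotype difference averaged over conditions, which uses all groups. Low counts limit the precision for Mx1, Mx2, Ifit3 and Oas2, which were at 0 in 7 to 13 libraries.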
